A study of Mus musculus with 8 samples.

Results

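The cytochrome P450 genes were taken as the rows of a deposited polysome table whose mouse symbol is Cyp followed by a family number, a subfamily letter or letters and a gene number, with pseudogene symbols left out. Of 21765 rows, 78 matched. Those described here were chosen by their mean level over the 8 libraries, at least 1 TPM (transcripts per 1000000), which left 34. The other 44 were below that level, 8 of them at 0 in all libraries, and no value of theirs exceeded 1.4 TPM. Since the choice used the measured TPM, the levels themselves are given as a description. Just inside the threshold lay Cyp4f39 and Cyp4f18, at means of 1.11 and 1.1 TPM, and just outside lay Cyp2c44 and Cyp2b13, at 0.648 and 0.487 TPM. Mean levels were at least 100 TPM for 4 of the 34 members, 10 to under 100 for 13, 5 to under 10 for 5 and 1 to under 5 for 12.

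The RNA came from the main olfactory epithelium of mice. Lysates of tissue kept in cycloheximide (100 µg/mL), which holds ribosomes on mRNA, were spun through sucrose gradients. Gradient fractions 27 to 34 were pooled as early, lighter polysomes and fractions 35 to 42 as late, heavier polysomes. There were 4 groups of 2 libraries, namely WT early, WT late, cKO early and cKO late. Mice labelled WT carried floxed Mex3a (flox/flox or flox/+) without Cre, and mice labelled cKO, for conditional knockout, carried Mex3a flox/flox with a Cre allele. The Cre line is not reported here. No label gives age, sex or the number of mice in a lysate, and p-values therefore measure the spread between these lysates and libraries. The title and genotype label of 1 library conflict, since replicate 2 of WT early is tagged as cKO. It was kept as WT.

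Whole reads inferred from the steps of the TPM values summed to between 7776792 and 12771079 per library. Mex3a, the targeted gene, which encodes an RNA-binding protein, had 93.2 to 116 TPM in the 4 WT libraries and 11.1 to 19.8 TPM in the 4 cKO libraries. The library with the conflicting label was the one at 116. Xist, from the inactive X chromosome, and 4 Y-linked genes were present in all 8 libraries. Xist was lower in every cKO library (0.6 to 1.75 TPM) than in every WT library (1.78 to 3.37 TPM), and the Y-linked genes were 0.32 to 0.60 log2 higher in cKO on lysate means. None of the 5 passed in a genotype comparison by limma (on lysate means, 4 were under 0.05 before adjustment), and the part of sex in the genotype comparisons below was not tested.

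Cytochrome P450 enzymes are haem proteins that add an oxygen atom to their substrates with electrons from NADPH. Those in the endoplasmic reticulum receive the electrons from the reductase Por, in part through cytochrome b5, and the mitochondrial ones receive them from Fdxr and ferredoxin. In the nose they are concentrated in sustentacular (supporting) cells and in Bowman's glands, where they clear odorants and inhaled chemicals and can also turn some of these into reactive products.

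The haem iron is held by a cysteine in a stretch of 10 residues with the pattern Phe-x-x-Gly-x-Arg-x-Cys-x-Gly, in which x is any residue. Its coding bases are shown for the members of highest level and for Cyp2u1, the member that went against them between the fractions. They were read from the GENCODE M21 transcripts (GRCm38), taking for each gene the one with the longest complete coding sequence, with the cysteine codon in capitals.
Cyp2a5: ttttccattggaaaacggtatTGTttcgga
Cyp2g1: ttttcctctggaaagcgcatcTGCgttggg
Cyp2f2: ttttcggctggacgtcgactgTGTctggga
Cyp1a2: ttcggcttgggaaagcgccggTGCattggg
Cyp4v3: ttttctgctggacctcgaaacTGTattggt
Cyp2u1: tttgggatagggaagcgggtgTGTatggga
The stretch starts at coding base 1294 in Cyp2a5 and Cyp2g1, 1285 in Cyp2f2, 1345 in Cyp1a2, 1378 in Cyp4v3 and 1405 in Cyp2u1. Of its 30 bases, 11 differed from Cyp2a5 in Cyp2g1, 12 in Cyp2f2, 14 in Cyp1a2, 12 in Cyp4v3 and 11 in Cyp2u1. The pattern was found in 29 of the 34 members, with the cysteine codon TGC in 20 and TGT in 9. It was not found in this strict form in the transcripts used for Cyp20a1, Cyp2b10, Cyp2s1, Cyp39a1 and Cyp7b1, and their other transcripts were not searched.

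Cyp2a4 and Cyp2a5 were the closest pair of members, and the assignment of reads between them is uncertain. These genes, which encode a steroid hydroxylase and a coumarin hydroxylase, were identical at 98.4% of coding bases, with 23 differences in 1482 bases and a longest identical run of 216 bases. The window of 60 coding bases from 598 to 657 is shown because it holds 4 of the differences, in capitals.
Cyp2a5: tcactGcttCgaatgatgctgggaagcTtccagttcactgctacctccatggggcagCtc
Cyp2a4: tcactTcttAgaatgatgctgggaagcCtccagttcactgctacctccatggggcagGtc
Between 7562 and 30665 inferred reads per library were assigned to Cyp2a5 and between 4 and 22 to Cyp2a4. The Cyp2a4 reads were 0.033% to 0.0767% of the Cyp2a5 reads. How reads that match both genes were assigned is not given in the sources used here, so the Cyp2a4 values are uncertain. Coding identity to the nearest other member reached 91.9% for Cyp4f16 (with Cyp4f37, below the threshold), 87.1% for Cyp2b10 (with Cyp2b13, also below it) and 84.3% for Cyp4f17 (with Cyp4f16), and was 84.1% or lower for the others.

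A few genes held most of the P450 RNA. The 78 genes together had 4148 and 3266 TPM (WT, replicates 1 and 2) and 4019 and 2408 TPM (cKO) in early libraries, and 9270 and 9312 TPM (WT) and 10257 and 9730 TPM (cKO) in late libraries. The same order is kept below. That is 0.241% to 0.415% of all TPM in early libraries and 0.927% to 1.03% in late libraries, and the early and late values did not overlap. The 4 highest members, Cyp2a5, Cyp2g1, Cyp2f2 and Cyp1a2, made up 89.7% to 94.9% of the sum in each library. Cyp2a5 alone made up 40.4% to 49.4%, and Cyp2g1 23.8% to 35.1%. The order of these 4 was the same in both fractions. Further down, Cyp2u1 was 13th in early and 21st in late libraries, Cyp39a1 10th and 16th, and Cyp4b1 14th and 10th.

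**Figure D1:**
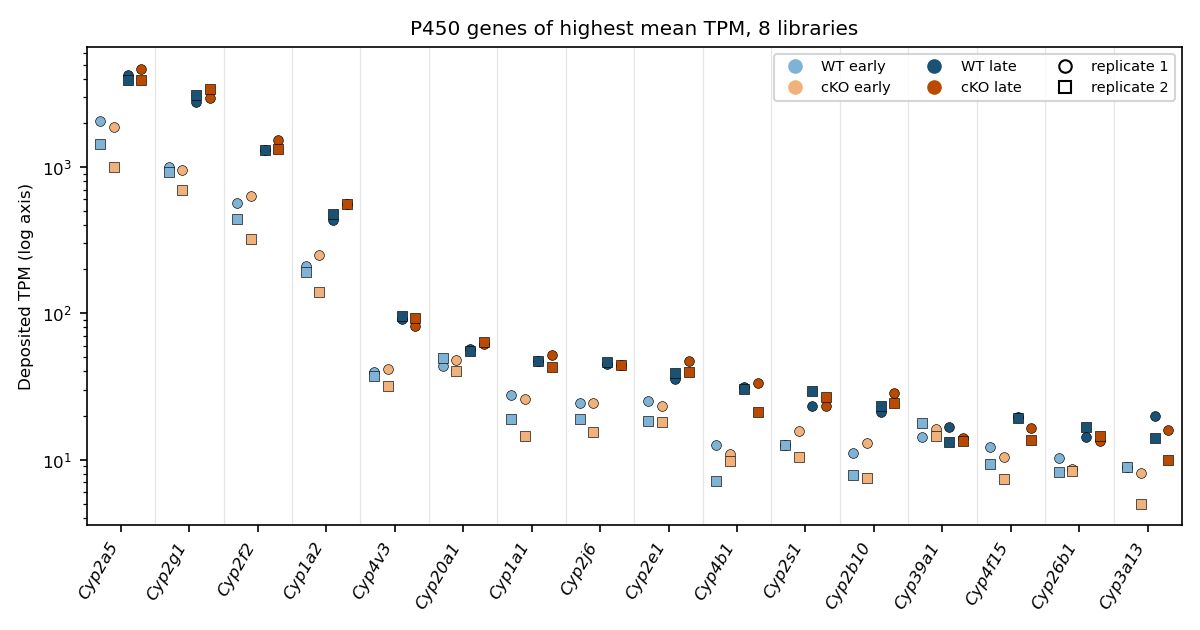
Deposited TPM (log axis) of the 16 P450 genes with the highest means, in each of the 8 libraries. Colour gives genotype and fraction, circles replicate 1 and squares replicate 2. Cyp2a5, Cyp2g1, Cyp2f2 and Cyp1a2 stand above the rest in every library, and cKO early replicate 2 is the lowest library for each of those 4.

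Late and early polysomes were compared to see which P450 mRNAs were relatively more abundant on heavy than on light polysomes. In the average of the genotypes, 22 of 34 members passed the test, 21 higher and 1 lower in late libraries (limma, Benjamini-Hochberg adjusted p of 0.05). Of all 16097 genes tested, 68.9% passed, 34.3% higher and 34.6% lower, so the share of members that rose was above that of all genes and the share that fell was below it. Some low members reached the mean of 1 TPM mainly through late libraries, and their calls as higher are not independent of that choice. Among those called, Cyp4f39 had 0.348 to 0.945 TPM in early and 1.14 to 1.98 TPM in late libraries. For Cyp2a4 the ranges were 0.531 to 1.09 TPM and 1.73 to 3.5 TPM. The same filter was applied to all genes tested. The median log2 change of late minus early was 0.58 over the members and -0.01 over all genes tested. All changes below are of log2(scaled TPM + 1), which understates the change of low genes, and each is a change in a gene's share of the library, not in its number of molecules. In each lysate the members' median was above 0, at 0.44 in WT lysate 1, 0.80 in WT lysate 2, 0.61 in cKO lysate 1 and 0.78 in cKO lysate 2. All 4 late libraries lay above all 4 early libraries in 20 members and below them in 1, against 31.5% and 30.9% of all genes tested.

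Within WT, 16 of 34 members passed, all of them higher in late, where 27.1% of all genes were higher and 54.8% passed in either direction. Within cKO, 21 passed, 20 higher and 1 lower, where 28.9% of all genes were higher, 29.2% lower and 58.1% either. The member medians were 0.55 in WT and 0.69 in cKO, beside -0.01 over all genes in each. The WT count was 8 without WT early replicate 2 and 10 without WT late replicate 2, and the cKO count was 12 without cKO early replicate 2.

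**Figure D2:**
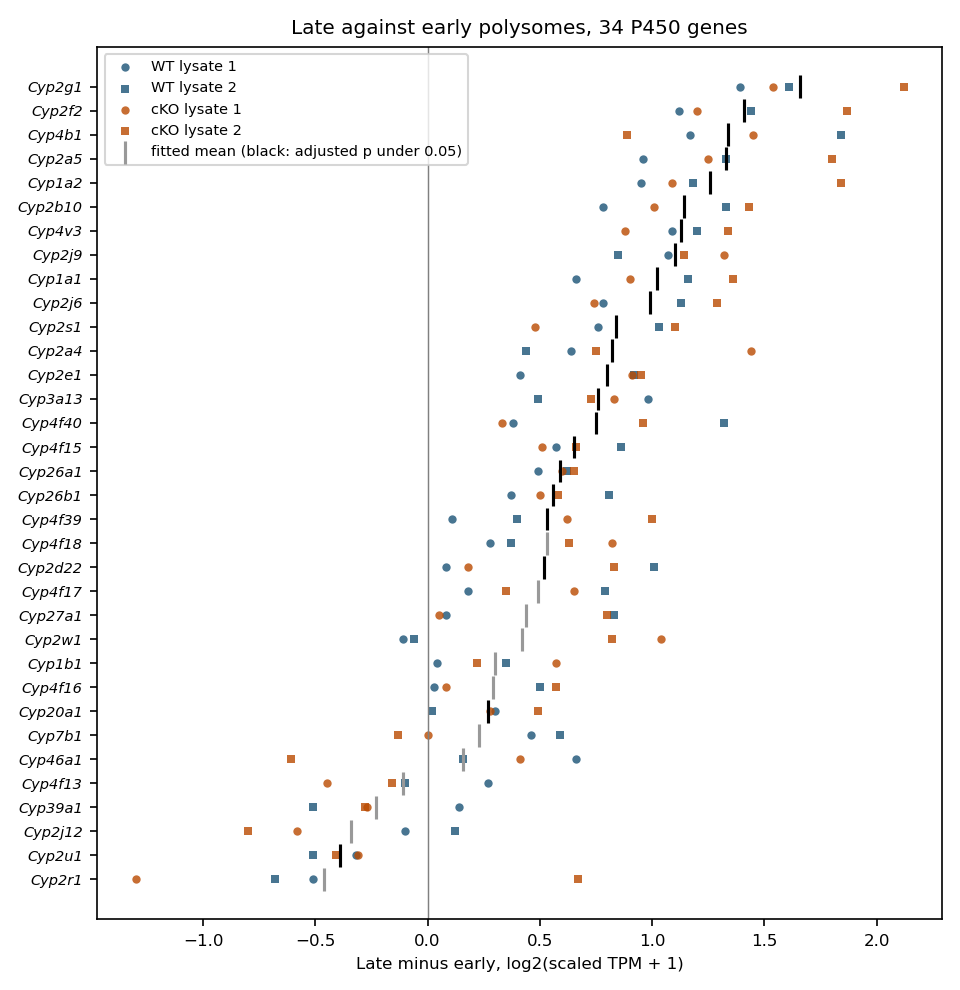
Late minus early log2(scaled TPM + 1) of the 34 P450 genes in each of the 4 lysates (blue WT, orange cKO, circles lysate 1, squares lysate 2). Vertical bars are the fitted average, black where the adjusted p was under 0.05. Cyp2g1, at 1.66, is at the top, and Cyp2u1, at -0.39, is the only black bar below 0.

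Of the 13 members classed here under drugs, odorants and other foreign compounds, 11 rose, with a median of 0.84 and none lower, where 34.3% of all genes tested were higher. The 11 include Cyp2a4, described above as encoding a steroid hydroxylase, on 4 to 22 reads per library of uncertain assignment. They also include Cyp2d22, whose call was lost in several alternatives. Of tested genes within the range of P450 coding lengths, 44.9% were higher and 21.6% lower, with a median of 0.22. Differences between these classes of members were not tested. Cyp2g1, an enzyme known for its near restriction to olfactory mucosa, lies on chromosome 7 at 26808892 to 26821205 of the plus strand (GRCm38). It had 998 and 926 TPM (WT) and 958 and 697 TPM (cKO) in early libraries, and 2776 and 3080 TPM (WT) and 2958 and 3419 TPM (cKO) in late libraries. Every late library was above every early library. Scaled means rose from 973 ± 42 to 2748 ± 176 TPM in WT and from 869 ± 181 to 3071 ± 234 TPM in cKO (SD, n = 2 each). Its log2 change was 1.66 (SE 0.12, limma adjusted p = 2.12e-05), or 3.16-fold on scaled means, and was 1.39 to 2.12 in the 4 lysates. This was the highest average change among the members.

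Cyp2a5, which oxidises coumarin, nicotine and nitrosamines, lies near Cyp2g1 on chromosome 7, at 26835305 to 26843548 of the plus strand. It had the highest level, with 2051 and 1424 TPM (WT) and 1859 and 1005 TPM (cKO) in early libraries, and 4228 and 3922 TPM (WT) and 4682 and 3933 TPM (cKO) in late libraries. The fractions did not overlap, but the early replicates were proportionally further apart than the late ones. Its scaled means were 1755 ± 431 and 3827 ± 239 TPM in WT early and late, and 1502 ± 612 and 4161 ± 620 TPM in cKO early and late (SD, n = 2 each). The log2 change was 1.33 (SE 0.21, limma adjusted p = 0.000552), from 0.96 in WT lysate 1 to 1.80 in cKO lysate 2.

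Cyp2f2 bioactivates naphthalene and styrene and lies in the same stretch of chromosome 7, at 27119909 to 27133660 of the plus strand. It had 568 and 440 TPM (WT) and 628 and 320 TPM (cKO) in early libraries, and 1311 and 1308 TPM (WT) and 1527 and 1316 TPM (cKO) in late libraries. Late libraries were again all above the early ones, and the lowest value was that of cKO early replicate 2. Its log2 change was 1.41 (SE 0.19, limma adjusted p = 0.000276), or 2.59-fold on scaled means.

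The Cyp1 members oxidise planar aromatic compounds, and Cyp1a1 and Cyp1a2 are classic targets of the aryl hydrocarbon receptor. Cyp1a2 lies on chromosome 9 at 57676937 to 57683703 of the minus strand, with Cyp1a1 beside it on the plus strand at 57687928 to 57703824. Cyp1a2 had 211 and 192 TPM (WT) and 249 and 139 TPM (cKO) in early libraries, and 435 and 477 TPM (WT) and 562 and 561 TPM (cKO) in late libraries. Its fractions did not overlap, and its log2 change was 1.26 (SE 0.16, limma adjusted p = 0.000148). Cyp1a1 was lower throughout, with 27.7 and 18.8 TPM (WT) and 26 and 14.4 TPM (cKO) in early libraries, and 47.2 and 47.3 TPM (WT) and 52.1 and 43.2 TPM (cKO) in late libraries. It too was higher in all late libraries, and its log2 change was 1.02 (SE 0.18, limma adjusted p = 0.00116). Cyp1b1, which also hydroxylates oestrogens, had 3.33 to 4.87 TPM in early and 4.56 to 6.28 TPM in late libraries. These ranges overlapped, and its change of 0.30 did not pass (limma adjusted p = 0.0974).

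Cyp2e1, which oxidises ethanol and other small molecules, had 25.1 and 18.5 TPM (WT) and 23.1 and 18 TPM (cKO) in early libraries, and 35.8 and 39.2 TPM (WT) and 46.9 and 39.9 TPM (cKO) in late libraries. The fractions did not overlap, and its log2 change was 0.80 (SE 0.12, limma adjusted p = 0.000473). Further rises were 1.14 for Cyp2b10 (the mouse gene known for induction by phenobarbital), 0.84 for Cyp2s1, 0.82 for Cyp2a4, 0.76 for Cyp3a13 and 0.52 for Cyp2d22. The Cyp2a4 value rests on the 4 to 22 reads noted above. The Cyp2d22 call was lost with a block for lysate (limma adjusted p = 0.0759). It was also lost without each library other than WT late replicate 1 and cKO early replicate 1 (adjusted p 0.0512 to 0.158). Cyp2w1 did not pass, at 0.42 (limma adjusted p = 0.0732), with -0.08 in WT and 0.93 in cKO. Within cKO it passed (adjusted p = 0.0159), and that call was lost without cKO late replicate 1 (0.0876) or cKO early replicate 2 (0.0898).

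Members that act on fatty acids and their derivatives moved in both directions, with 7 of 13 higher, 1 lower and 5 not called, and a median of 0.53, where 34.3% of all genes were higher and 34.6% lower. Within the range of P450 coding lengths these shares were 44.9% and 21.6%. Cyp4v3, a fatty acid omega-hydroxylase whose human counterpart is mutated in Bietti crystalline dystrophy, had 39.9 and 37.4 TPM (WT) and 41.3 and 31.9 TPM (cKO) in early libraries, and 91.4 and 95.5 TPM (WT) and 81.6 and 92.5 TPM (cKO) in late libraries. Late libraries were well apart from early ones. Its log2 change was 1.13 (SE 0.09, limma adjusted p = 2.32e-05), with similar values of 1.15 in WT and 1.11 in cKO. Cyp4b1, which hydroxylates fatty acids and activates 4-ipomeanol, had 12.6 and 7.12 TPM (WT) and 11 and 9.74 TPM (cKO) in early libraries, and 31.5 and 30.6 TPM (WT) and 33.6 and 21.2 TPM (cKO) in late libraries. It was higher in all late libraries, and its log2 change was 1.34 (SE 0.19, limma adjusted p = 0.000317), the highest of this class.

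The Cyp2j members, which are in this class of fatty acids and their derivatives, did not move together. Cyp2j6 had 24.4 and 18.9 TPM (WT) and 24.5 and 15.5 TPM (cKO) in early libraries, and 45.3 and 46.5 TPM (WT) and 44 and 44.3 TPM (cKO) in late libraries. It did not overlap between fractions and had a log2 change of 0.99 (SE 0.14, limma adjusted p = 0.000261). Cyp2j9 had 5.09 and 4.6 TPM (WT) and 2.7 and 4.34 TPM (cKO) in early libraries, and 12.5 and 9.9 TPM (WT) and 8.71 and 12 TPM (cKO) in late libraries. Its late libraries were all above the early ones, and its log2 change was 1.10 (SE 0.16, limma adjusted p = 0.000428). Cyp2j12 had 8.38 and 5.78 TPM (WT) and 5.41 and 6.33 TPM (cKO) in early libraries, and 8.27 and 6.95 TPM (WT) and 3.51 and 3.62 TPM (cKO) in late libraries. Its WT fractions overlapped, while both cKO late libraries were below every other library. Cyp2j12 passed within cKO, at -0.69 (SE 0.20, limma adjusted p = 0.0177), and not within WT, at 0.01 (adjusted p = 0.968) or on average, at -0.34 (adjusted p = 0.0614). The call within cKO was lost without cKO early replicate 2 (adjusted p = 0.107), cKO late replicate 1 (0.0546) or cKO late replicate 2 (0.061). Coding sequences of Cyp2j6 and Cyp2j9 were 82.2% identical.

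Cyp2u1, a long-chain fatty acid hydroxylase, was the only member that passed as lower on average. It had 11.8 and 10.4 TPM (WT) and 9.11 and 9.68 TPM (cKO) in early libraries, and 9.84 and 7.67 TPM (WT) and 7.62 and 7.95 TPM (cKO) in late libraries. Every early library was above every late library once scaled, with lysate changes of -0.31 to -0.51. Its log2 change was -0.39 (SE 0.11, limma adjusted p = 0.0138), and within each genotype it did not pass, at -0.42 in WT (adjusted p = 0.0525) and -0.36 in cKO (adjusted p = 0.0832). With TPM as deposited, without scaling, its average change was -0.28 (adjusted p = 0.0512), and without WT late replicate 2 it was -0.30 (adjusted p = 0.052).

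The Cyp4f genes encode omega-hydroxylases of leukotrienes and other fatty acids. Of the 7 described here, Cyp4f40 (0.75), Cyp4f15 (0.65) and Cyp4f39 (0.53) passed as higher. Cyp4f18 (0.53), Cyp4f17 (0.49), Cyp4f16 (0.29) and Cyp4f13 (-0.11) did not. Of all genes tested 34.3% were higher, and of those within the range of P450 coding lengths 44.9% were. Cyp4f15 was the highest of the 7, with 7.37 to 12.1 TPM in early and 13.7 to 19.6 TPM in late libraries, which did not overlap. Cyp4f39 and Cyp4f40 rested on few reads, 4 to 19 and 8 to 31 per library. Cyp4f39 also reached the threshold through its late libraries, as given above. The Cyp4f39 call was lost with a block for lysate (limma adjusted p = 0.0557), and without each library other than WT early replicate 1 and cKO early replicate 1 (0.0594 to 0.131). The Cyp4f40 call was lost without WT early replicate 2 (0.0528) or WT late replicate 2 (0.0571).

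Of the 7 members that act on sterols, vitamin D and retinoic acid, 2 rose and 5 were not called, a share near the 34.3% of all genes that were higher. Their median of 0.23 was above the -0.01 of all genes tested and near the 0.22 of tested genes within the range of P450 coding lengths. In that range 44.9% of genes were higher. The 2 were both retinoic acid hydroxylases, Cyp26b1 and Cyp26a1. Cyp26b1 had 10.2 and 8.28 TPM (WT) and 8.63 and 8.32 TPM (cKO) in early libraries, and 14.3 and 16.6 TPM (WT) and 13.4 and 14.5 TPM (cKO) in late libraries, with no overlap between the fractions. Its log2 change was 0.56 (SE 0.10, limma adjusted p = 0.0011). Cyp26a1 was lower, with 1.3 to 2.1 TPM in early and 2.61 to 4.12 TPM in late libraries, and changed by 0.59 (SE 0.16, limma adjusted p = 0.0109).

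Cyp39a1, an oxysterol 7-alpha-hydroxylase, had 14.3 to 17.7 TPM in early and 13.2 to 16.8 TPM in late libraries. These overlapped, and its change was -0.23 (limma adjusted p = 0.105). Cyp27a1, the mitochondrial sterol 27-hydroxylase, had 4.7 to 11.1 TPM in early and 8.13 to 12.3 TPM in late libraries, a change of 0.44 that did not pass (adjusted p = 0.123). The remaining members were at lower levels, namely Cyp7b1 (oxysterol 7-alpha-hydroxylase, 0.23), Cyp46a1 (cholesterol 24-hydroxylase, 0.16) and Cyp2r1 (vitamin D 25-hydroxylase, -0.46). They had 7 to 38, 5 to 26 and 4 to 23 reads per library, and none of the 3 passed.

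Cyp20a1, a member with no settled substrate, was the sixth most abundant. It had 43.6 and 49.6 TPM (WT) and 47.9 and 40.1 TPM (cKO) in early libraries, and 57.2 and 55.1 TPM (WT) and 62 and 63.5 TPM (cKO) in late libraries. Its ranges did not overlap between the fractions, but the change was small, at 0.27 (SE 0.08, limma adjusted p = 0.015). Within WT it was 0.16 (adjusted p = 0.261) and within cKO 0.38 (adjusted p = 0.0187), where the call was lost without cKO early replicate 2 (0.124), cKO late replicate 1 (0.0642) or cKO late replicate 2 (0.0592). The average call was lost without WT early replicate 1 (adjusted p = 0.055), WT late replicate 1 (0.0516) or cKO early replicate 2 (0.0524).

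Longer coding sequences can hold more ribosomes, and the P450 genes are of nearly equal coding length. Across the 14687 tested genes with an annotated coding sequence, coding length and the change between fractions had a rank correlation of 0.633 (across genes, which are not independent replicates). Members ranged from 1386 coding nucleotides (Cyp20a1) to 1629 (Cyp1b1), without the stop codon. Of the 1401 tested genes in that range, members included, 44.9% were higher and 21.6% lower in late libraries, with a median of 0.22 and 10th and 90th percentiles of -0.53 and 0.92. The members' 21 of 34 and median of 0.58 stand beside these values, and the part of length in the result was not tested further. Among the members themselves the rank correlation with coding length was -0.146 (34 genes).

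Members of similar length spanned most of the range of changes. Cyp2g1 and Cyp2a5 have 1482 coding nucleotides and changed by 1.66 and 1.33, while Cyp2u1 with 1590 changed by -0.39 and Cyp4v3 with 1575 by 1.13. The change rose with the level of the member, with a rank correlation of 0.595 over the 34 members between mean TPM and late minus early, 0.712 over the 22 with a mean of at least 5 TPM and 0.375 with changes from inferred reads. Across all tested genes it was 0.0355. These points share the same 8 libraries, and the pseudocount pulls the change of low members towards 0. With the GC content of the coding sequence the members' correlation was -0.0561.

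**Figure D3:**
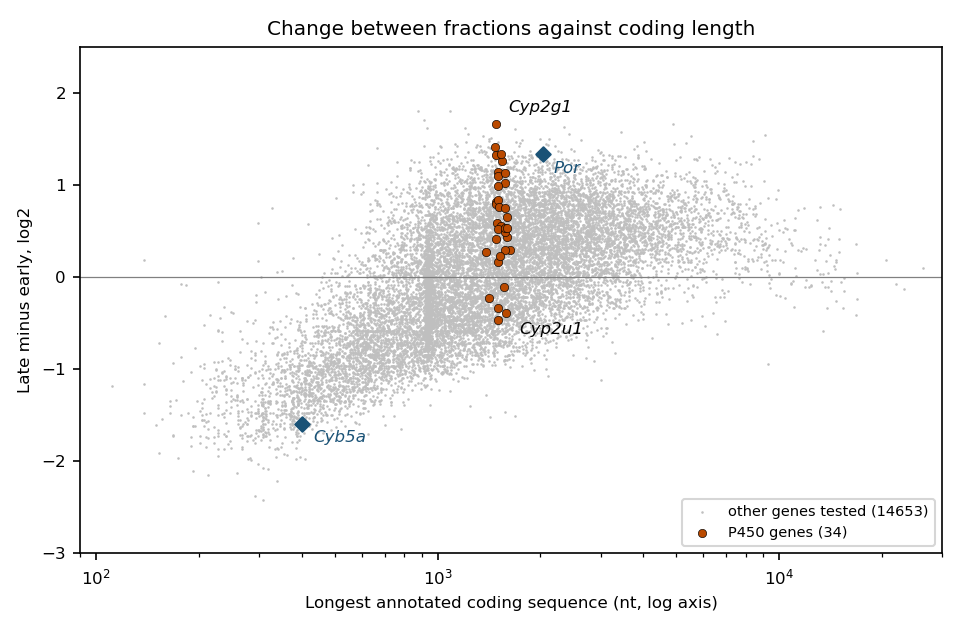
Late minus early log2 change, average of the genotypes, against the longest annotated coding sequence (nt, log axis) for 14653 other tested genes (grey) and the 34 P450 genes (orange), with Por and Cyb5a as diamonds. The P450 genes form a narrow band in length and run from -0.46 to 1.66 in change.

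Of the 78 genes, 13 lie in a cluster of 1356 kb on chromosome 7 (25802475 to 27158668, GRCm38). Only 6 of these were described, Cyp2s1, Cyp2b10, Cyp2a4, Cyp2g1, Cyp2a5 and Cyp2f2, and they held 89% of the P450 TPM. All 6 passed as higher in late polysomes, where 34.3% of all genes tested and 44.9% of those within the range of P450 coding lengths were higher. The Cyp2a4 call rests on 4 to 22 reads per library of uncertain assignment, and Cyp2a4 reached the threshold mainly through its late libraries. Their neighbours differed widely in level, with Cyp2g1 and Cyp2a5 at means of 1976 and 2888 TPM and Cyp2b19 and Cyp2a22, on either side of them, at 0.0578 and 0.0766 TPM.

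Genes that serve the P450 enzymes were divided. Of 10 tested electron donors and their partners, 3 rose and 7 fell in late polysomes, where 34.3% of all genes tested were higher and 34.6% lower. Por, the reductase of the endoplasmic reticulum, had 354 and 254 TPM (WT) and 312 and 175 TPM (cKO) in early libraries, and 752 and 726 TPM (WT) and 766 and 668 TPM (cKO) in late libraries. Its late libraries were all above the early ones, and cKO early replicate 2 was again the lowest. Its log2 change was 1.34 (SE 0.18, limma adjusted p = 0.000225), close to that of Cyp2a5. Fdxr, the mitochondrial reductase, rose by 0.93 (SE 0.17, limma adjusted p = 0.00112).

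The cytochrome b5 genes moved the other way. Cyb5a had 1154 and 1401 TPM (WT) and 1311 and 1508 TPM (cKO) in early libraries, and 531 and 468 TPM (WT) and 558 and 389 TPM (cKO) in late libraries. Its fractions did not overlap, with a log2 change of -1.59 (SE 0.15, limma adjusted p = 3.77e-05), and Cyb5b changed by -1.18 (SE 0.10, limma adjusted p = 2.75e-05). The coding sequences of Cyb5a and Cyb5b have 402 and 438 nucleotides, and that of Por has 2034. Fdx1, Pgrmc1, Pgrmc2 and Cyb5r1, with 564, 585, 651 and 915, also fell. Cyb5r3 with 939 rose by 0.39, Fdxr with 1482 rose, and Cyb5r4 with 1584 changed by -0.54. The part of coding length in these changes was not tested.

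Haem synthesis had 5 genes higher, 3 lower and 1 not called of 9, where 34.3% of all genes tested were higher and 34.6% lower. Alas1, the rate-limiting enzyme outside red cells, had 48.7 to 68.5 TPM in early and 128 to 145 TPM in late libraries, with no overlap, and rose by 1.08 (SE 0.11, limma adjusted p = 5.69e-05). Urod rose by 1.19, and Fech, which acts last and inserts the iron, changed by -0.48. Of the 4 haem breakdown genes 3 rose, Hmox1 (0.97) and Blvra (0.87) the most, and Hmox2 did not pass (0.06).

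Of 14 listed transcription factors and regulators that act on P450 genes, 10 were tested, and 5 rose and 1 fell. Of all genes tested, 34.3% were higher and 34.6% lower. Nfe2l2, which encodes the oxidative stress factor NRF2, rose by 0.73 and Ahr, the aryl hydrocarbon receptor, by 0.57. Rxra changed by -0.34. The nuclear receptors that drive hepatic P450 genes were low, with means of 0.515 TPM for Nr1i2 (PXR) and 0.142 TPM for Nr1i3 (CAR), and Hnf4a was listed at 0 in all 8 libraries. P450 genes whose symbols fall outside the rule were Cyp51 (lanosterol demethylase, 0.74) and Ptgis (prostacyclin synthase, 0.65), which rose, and Tbxas1 (thromboxane synthase, 0.36), which did not pass. Over these 5 lists 29 of 36 tested genes passed in the average of the genotypes, where 68.9% of all genes did.

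Markers of other cells moved with the fractions as well, where 34.3% of all genes tested were higher and 34.6% lower in late libraries. Of 7 sustentacular markers 6 rose and 1 fell, with a median of 0.88, and their summed level was 5242 to 5813 TPM in early and 6213 to 7711 TPM in late libraries. Sec14l3 rose by 1.62, Krt8 and Krt18 each by 1.22, and Cbr2, the most abundant, changed by -0.51. Sec14l3 had 542 to 838 TPM in early and 2223 to 2449 TPM in late libraries. Cbr2 had 4035 to 4443 TPM in early and 2739 to 3941 TPM in late libraries. The higher late sum of sustentacular markers therefore rests largely on Sec14l3 and does not describe Cbr2. Of 8 nasal gland markers 6 rose and 1 fell, with summed levels of 9498 to 14889 TPM in early and 15663 to 23589 TPM in late libraries. Of 8 markers of mature olfactory neurons 5 rose and 3 fell, and their summed level was 10121 to 12285 TPM in early and 7082 to 8599 TPM in late libraries. The 3 that fell, Omp, Stoml3 and Gng13, had the highest means of the 8 (3618, 2694 and 1149 TPM). The lower sum therefore does not describe the 5 that rose, Cnga2, Cnga4, Gnal, Adcy3 and Ano2. By the names in the labels, each early library came from the same lysate as a late library. The part of cell types in these shifts was not tested.

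**Figure D4:**
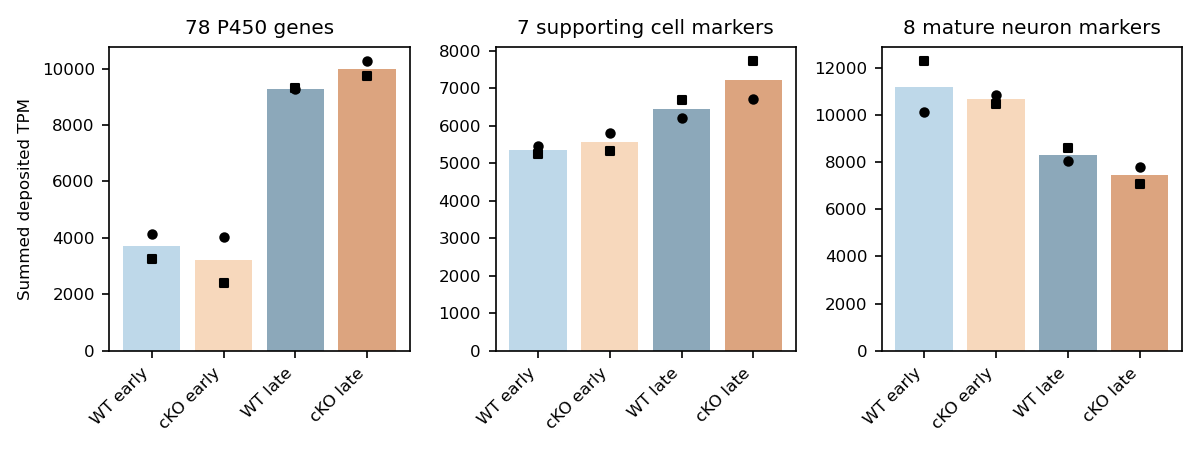
Summed deposited TPM of the 78 P450 genes, the 7 sustentacular (supporting cell) markers and the 8 mature neuron markers. Bars are means of 2 libraries, circles replicate 1 and squares replicate 2. P450 and supporting cell sums are higher in every late than in every early library, and neuron marker sums are lower. The most abundant genes of the supporting cell sum were Cbr2, which fell (-0.51), and Sec14l3, which rose (1.62). Taken gene by gene, 5 of the 8 neuron markers rose and 3 fell.

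The genotypes were compared to ask whether loss of Mex3a changed P450 mRNA on polysomes. No member passed in early polysomes (0 of 34, where 0.0435% of all genes passed, limma), in late polysomes (0 of 34, where 0.0124% passed), on lysate means (0 of 34, where 0.00621% passed) or in the interaction of genotype and fraction (0 of 34, where 0.00621% passed). At an unadjusted p under 0.05 there were 0, 2, 1 and 2 members, where 6.65%, 9.36%, 11.3% and 2.85% of all genes were under it. Leaving out a library or lysate moved these unadjusted counts to 0 to 5 in early (5 without cKO early replicate 1, 3 without cKO early replicate 2, 1 without WT early replicate 1), 1 to 4 in late (4 without either cKO early library, 1 without WT late replicate 1), 1 to 7 on lysate means (7 without cKO lysate 2, 3 without cKO lysate 1) and 0 to 5 in the interaction (5 without cKO early replicate 1, 1 without cKO late replicate 1, and 0 without WT late replicate 1, WT early replicate 2 or cKO early replicate 2). With voom on inferred reads the adjusted counts were 0 in each and the unadjusted counts 0, 3, 2 and 2. Member medians of cKO minus WT were -0.05 in early and 0.01 in late polysomes. On scaled TPM, both cKO libraries lay above both WT libraries in 1 member, Cyp4f13, and below in 6 in early polysomes, against 19.6% and 17.6% of all genes. In late polysomes they lay above in 9 members and below in 4, against 20.5% and 20.1%. The 9 were Cyp2g1, Cyp2f2, Cyp1a2, Cyp20a1, Cyp2e1, Cyp2b10, Cyp2w1, Cyp4f39 and Cyp4f18. The 4 were Cyp4f15, Cyp4f13, Cyp2j12 and Cyp46a1.

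For the abundant members the genotype differences were of the order of their standard errors. In early polysomes cKO minus WT was -0.27 (SE 0.30) for Cyp2a5, -0.18 (SE 0.18) for Cyp2g1, -0.10 (SE 0.28) for Cyp2f2 and -0.06 (SE 0.22) for Cyp1a2. In late polysomes it was 0.11 (SE 0.30), 0.16 (SE 0.18), 0.15 (SE 0.28) and 0.34 (SE 0.22). Their interactions were 0.38 (SE 0.42), 0.34 (SE 0.25), 0.25 (SE 0.39) and 0.39 (SE 0.31), all with a limma adjusted p of 1.0. With 2 libraries a group, differences of several standard errors also went uncalled, as given below for Cyp2j12 and Cyp2w1. In these bulk lysates fewer cells of a type and less RNA per cell cannot be told apart between genotypes.

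**Figure D5:**
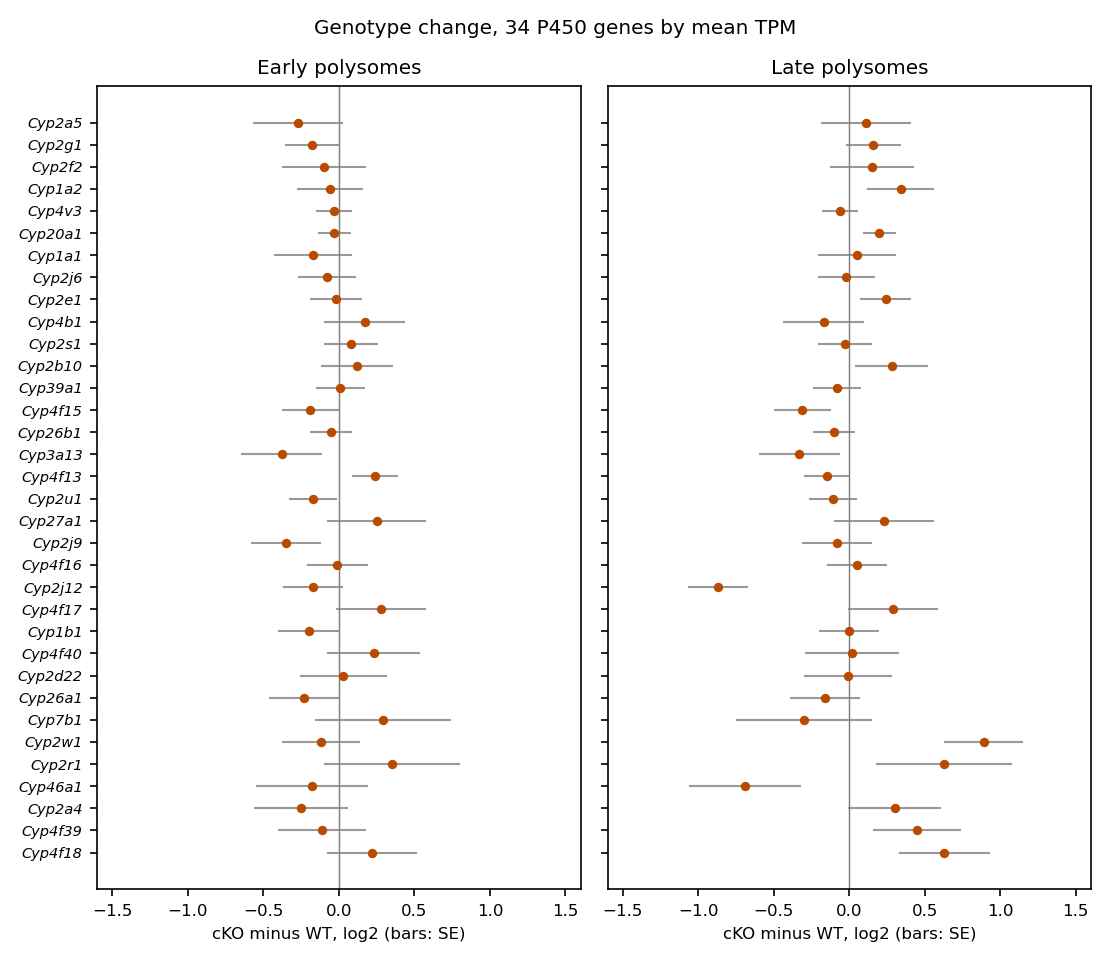
Fitted log2 difference, cKO minus WT, of the 34 P450 genes in early (left) and late (right) polysomes, ordered by mean TPM. Horizontal bars are standard errors from limma. The 4 most abundant members lie from -0.27 (Cyp2a5, early) to 0.34 (Cyp1a2, late). Cyp2j12 (-0.87) and Cyp2w1 (0.89) in late polysomes lie furthest out.

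Members with the smallest unadjusted p were the following, none of which passed. Cyp2j12 in late polysomes was -0.87 (SE 0.20, limma adjusted p = 0.337), with the values per library given above. It was the only member under 0.05 on lysate means, at -0.52 (SE 0.16, limma adjusted p = 0.38), and its interaction was -0.70 (SE 0.28, limma adjusted p = 1.0). Cyp2j12 is 84.1% identical in coding sequence to Cyp2j11, which lay below the threshold. It had 19 to 79 reads per library.

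Cyp2w1, an enzyme known mainly from fetal colon and colorectal tumours, had 1.5 and 1.93 TPM (WT) and 1.67 and 1.21 TPM (cKO) in early libraries, and 1.41 and 1.97 TPM (WT) and 4.7 and 3.19 TPM (cKO) in late libraries. Both cKO late libraries were above all others, on 8 to 26 reads per library. In late polysomes its difference was 0.89 (SE 0.26, limma adjusted p = 0.401), and its interaction was 1.01 (SE 0.37, limma adjusted p = 1.0).

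In early polysomes the smallest p belonged to Cyp4f13, at 0.24 (SE 0.15, limma adjusted p = 0.827), and Cyp2j9, at -0.35 (SE 0.23, limma adjusted p = 0.841). Cyp4f13 had 9.76 and 11.1 TPM in WT early and 13.1 and 10.9 TPM in cKO early libraries. These deposited values overlapped, and once scaled both cKO libraries were above both WT libraries. On lysate means the next member after Cyp2j12 was Cyp2r1, at 0.49 (SE 0.24, limma adjusted p = 0.502). Its deposited values were 1.39 and 2.04 TPM (WT) and 2.97 and 1.82 TPM (cKO) in early libraries, and 0.725 and 0.984 TPM (WT) and 0.67 and 3.87 TPM (cKO) in late libraries. The 2 cKO late libraries were the lowest and the highest of all 8.

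Replicates of a group differed in P450 level mainly in early polysomes. The member median of replicate 2 minus replicate 1 was -0.25 in WT early, with 23 of 34 members lower in replicate 2, and -0.38 in cKO early, with 29 of 34 lower. In WT late it was 0.03, with 16 lower, and in cKO late -0.09, with 23 lower. Of all genes tested, 49.9% to 52.9% were lower in replicate 2 in the 4 groups. Summed nasal gland markers were lower in replicate 2 in both fractions, at 14889 and 9498 TPM (WT) and 13916 and 11469 TPM (cKO) in early libraries, and 21107 and 15663 TPM (WT) and 23589 and 20273 TPM (cKO) in late libraries. Bpifb9b, the most abundant, made up much of this sum, with 13021 and 8401 TPM in WT late and 14905 and 12026 TPM in cKO late libraries. In late libraries of both genotypes Bpifb9a, Bpifb9b and Muc5b were lower in replicate 2, and Sox9, Aqp5 and Gpx6 were higher. Obp1a and Obp2a differed in direction between the genotypes there. Summed sustentacular markers were lower in replicate 2 in early libraries, at 5458 and 5242 TPM (WT) and 5813 and 5328 TPM (cKO), and higher in late libraries, at 6213 and 6689 TPM (WT) and 6708 and 7711 TPM (cKO). The part of these cells in the difference was not tested. None of the genes that serve the P450 enzymes passed in a genotype comparison or the interaction (0 of 36 on lysate means, with 6 at an unadjusted p under 0.05, limma).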

How the data were processed

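Polysome-associated RNA was sequenced in 8 libraries, 4 groups of 2, with the SMARTer stranded total RNA kit for low input, per the labels' protocols. The authors deposited 1 table of TPM values per gene symbol, each column summing to 1000000. FastQC, cutadapt, STAR, DESeq2 and the build mm10 are named in the submitters' processing notes, without versions or roles. How reads were counted, how multi-mapped reads were treated and the annotation are not given in the sources used here.

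Libraries were brought to a common scale by median ratios (0.94 to 1.07). Values were taken as log2(scaled TPM + 1) and fitted with limma 3.58.1 (R 4.3.3) for the 16097 genes whose mean TPM reached 1. A single model held all 4 groups, and variances were moderated by empirical Bayes with a trend on the mean. P-values were two-sided and Benjamini-Hochberg adjusted over all genes tested, with a threshold of 0.05. Genotype was also tested on the means of each lysate's early and late values, 2 WT against 2 cKO lysates. Whole reads were inferred from the steps of TPM for all 19783 genes above 0 in at least 2 libraries (tolerance 0.001), and served for depth and for an alternative test with voom. Of the rows, 27 have symbols that a spreadsheet turned into dates, none of them a P450 gene.

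The early and late library of a lysate share a name in the labels. Deviations from the group means of such pairs correlated at 0.0863 in WT and 0.0502 in cKO, and the lysate block was an alternative. The fit was tested on simulated data.

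Coding sequences, lengths and positions came from GENCODE M21 on GRCm38, which is mm10, and may not be the authors' annotation. It held 77 of the 78 P450 symbols. Sequences were aligned with Biopython 1.88, and figures were drawn with matplotlib 3.10.9.

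All 34 members above the threshold were named. Values per library were given for the 10 of highest mean TPM and for members past the threshold with a mean of at least 5 TPM, up to 5 rising and 5 falling per comparison by size of change. Where a genotype comparison or the interaction had no call, the 2 members of smallest p were given, and partner genes were named up to 2 each way per list. Values of other members were added after they were seen. The members, the gene lists and the substrate classes were chosen with earlier results of these data known. Alternatives were pseudocounts of 0.1 and 0.5, no filter, a mean of at least 5 TPM, TPM as deposited, quantile normalization, no trend, voom, only the 4 libraries compared, replicate blocks, and leaving out each library.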

Additional observations from a re-analysis of the deposited data

Results flagged for a closer look

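In Cyp2w1 and Cyp7b1 the sign of the change between early and late polysomes was the same in both WT lysates and opposite in both cKO lysates. The Cyp2w1 values in WT and the Cyp7b1 values in cKO were close to 0. How many of all genes tested share this sign pattern is not given here. Cyp2w1 changed by -0.11 and -0.06 in the WT lysates and by 1.04 and 0.82 in the cKO lysates (log2, late minus early). Its interaction was 1.01 (limma adjusted p = 1.0), on 8 to 26 inferred reads per library. Cyp7b1 changed by 0.46 and 0.59 in the WT lysates and by -0.00025 and -0.13 in the cKO lysates. Its interaction was -0.59 (limma adjusted p = 1.0), on 7 to 38 inferred reads per library. Neither difference between the genotypes passed the test.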

How the results depend on the processing

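The member medians of late minus early within WT and within cKO stayed above 0 in the alternatives run. Of the 22 members called in the average of the genotypes, 17 were called in every alternative that tested them, and the others were Cyp20a1, Cyp2u1, Cyp4f40, Cyp2d22 and Cyp4f39. The filter at a mean of 5 TPM left 22 members to test and called 17, without Cyp2a4 and Cyp26a1, which it does not test. Leaving out each library in turn gave 8 to 16 calls in WT, 12 to 22 in cKO, 18 to 24 on average and 0 in each genotype comparison and the interaction, with medians of 0.50 to 0.72 in WT and 0.53 to 0.96 in cKO. A group left with 1 library was assumed to vary like the others. Pairing by the replicate block changed few calls, with the lysate block giving 15 calls in WT, 20 in cKO, 22 on average and 0 in the interaction. Samples of both genotypes share only a replicate number, and a block on it gave 0 calls in early, late and lysate-mean comparisons, where deviations of same-numbered libraries correlated at 0.332 in early and 0.143 in late. The WT median was 0.81 with a mean of at least 5 TPM, and the cKO median was 0.86 with that filter, 0.87 with a pseudocount of 0.1 and 0.88 with voom. The filter removes low members, the lower pseudocount and voom shrink them less, and whether other causes add to this was not tested. Summed P450 TPM without Cyp2a5 was 1969 in WT early, 5216 in WT late, 1782 in cKO early and 5686 in cKO late, and the WT late sum was 8723 once scaled. With libraries left out the sums were 3266 to 4148 in WT early, 9270 to 9312 in WT late, 2408 to 4019 in cKO early and 9730 to 10257 in cKO late. Direction turned for Cyp7b1 on average without cKO late replicate 1 (-0.07) or cKO early replicate 2 (-0.03) and for Cyp46a1 without cKO early replicate 1 (-0.12), with ranges of -0.07 to 0.52 and -0.12 to 0.43 as libraries were left out. None of these was called, and the cause was not tested. Members under 5 TPM rest on at most 127 inferred reads in any library, which limits their precision.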

Other observations

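The 3 markers of horizontal basal cells, the reserve stem cells of the epithelium, summed to 34.9 to 51.1 TPM in early and 68.5 to 80.1 TPM in late libraries. Krt5 rose by 0.98 and Trp63 by 0.73 (limma adjusted p = 0.000698 and 0.000596), and Krt14 did not pass, at 0.15. Of 5 immune markers, 3 fell, S100a9 (-1.85), S100a8 (-1.71) and Lyz2 (-0.44), where 34.6% of all genes tested were lower. Their coding sequences have 339, 267 and 444 nucleotides. Ptprc (0.23) and Cd68 (0.11), with 3879 and 1005, did not pass, and the part of length was not tested. Of 5 tested markers of respiratory epithelium, Tekt1 rose (0.79), and Foxj1 (-0.51) and Reg3g (-0.45) fell. The club cell gene Scgb1a1 was too low to be tested, at a mean of 0.227 TPM. It had 0 to 0.881 TPM in early libraries and 0 in all 4 late libraries.

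Among the P450 genes under 1 TPM, Cyp19a1 (aromatase) and Cyp11a1 (side-chain cleavage), which make steroid hormones, had means of 0.487 and 0.483 TPM, and no library exceeded 0.975 TPM for Cyp19a1 or 0.771 TPM for Cyp11a1.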
